A study of Homo sapiens with 16 samples.

Results

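The 57 genes described here are DNA repair genes, grouped by pathway. They are the genes of a count table of 60676 genes whose Ensembl identifier carries one of 57 listed symbols in GENCODE release 44: 16 of homologous recombination, 11 of the Fanconi anemia pathway, 3 RecQ helicases, 7 of end joining, 3 of mismatch repair, 9 of base excision and single-strand break repair, 5 of nucleotide excision repair and 3 damage signaling kinases. All 57 passed the filter on low counts and were tested. RNA was sequenced from THP-1 cells, a human monocytic leukemia line that phorbol-12-myristate-13-acetate (PMA) drives into macrophage-like cells, to ask how the loss of DNA methylation proteins changes that differentiation. Every line stably carried an shRNA delivered by lentivirus: shUHRF1 against UHRF1, which recruits the enzyme that keeps methylation up as DNA replicates, shDNMT1 against that enzyme, shDNMT3B against a de novo methyltransferase, and the control shNC. Each line was treated with PMA at 100 ng/ml or with its solvent DMSO for 48 h, which gave 8 groups of 2 libraries: shUHRF1 PMA, shUHRF1 DMSO, shDNMT1 PMA, shDNMT1 DMSO, shDNMT3B PMA, shDNMT3B DMSO, shNC PMA and shNC DMSO.

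Repair pathways differ in when cells use them. Homologous recombination copies the sister chromatid to mend broken DNA, the Fanconi anemia pathway removes crosslinks between the strands ahead of replication forks, and the RecQ helicases unwind the structures that both leave behind, so that their genes are known to be transcribed mostly in cells that replicate their DNA. End joining ligates broken ends without a template at any time of the cell cycle. Base excision, single-strand break and nucleotide excision repair replace damaged bases or short stretches of a strand. They also serve cells that no longer divide, among them macrophages. The paper cites a study in which blood monocytes lacked some repair proteins, among them the products of PRKDC, PARP1, LIG3 and XRCC1. Macrophages made from those monocytes had regained them. The paper itself reports the gene ontology term DNA repair as enriched among genes upregulated in shUHRF1 and in shDNMT1. It was the top term for the genes upregulated in both.

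Total counts per library ran between 13883556 and 23151864, and all libraries numbered 1 were deeper than all numbered 2, with 7.71 to 29.0% against 3.92 to 14.5% of counts from mitochondrial genes. For 12 of the 16 samples the description, which equals the column name in the count table, named another line or treatment than the title, and the column names were followed. By the titles, all groups but shNC DMSO and shDNMT3B PMA would hold other libraries. Macrophage markers summed to 14494 to 38837 CPM in the columns named for PMA and to 657 to 1050 CPM in the others, and all 9 markers tested rose on PMA in each line. The hairpin targets did not separate the lines. In DMSO, UHRF1 had 72.02 and 91.2 CPM (read counts relative to the TMM-scaled library size) in libraries labelled shUHRF1 against 87.1 and 122.6 CPM in shNC, DNMT1 had 82.4 and 111.3 CPM in libraries labelled shDNMT1 against 89.6 and 140.2 CPM in shNC, and DNMT3B had 6.40 and 6.87 CPM in libraries labelled shDNMT3B against 8.73 and 9.73 CPM in shNC. None of these was called (adjusted p = 0.61, 0.79 and 0.21, edgeR's quasi-likelihood test), and in PMA each target was higher in its own knockdown line than in shNC, by 0.87, 0.45 and 1.06 on the log2 scale, of which that of DNMT3B passed (adjusted p = 0.0069). With the replicate number as a block, those of UHRF1 and DNMT1 passed too (edgeR, adjusted p = 3.8e-04 and 0.0042). The study's supplement lists a western blot that checks the target proteins in its samples, which was not analysed here. In the RNA counts, every statement on a knockdown below therefore rests on the labels. T cell, B cell, fibroblast and epithelial markers summed to at most 32.8 CPM in any library, and CD3D was at 0 in all 16. The T cell sum ran from 0.208 to 1.01 CPM in DMSO libraries and from 11.8 to 20.6 CPM in PMA libraries. The only T cell marker tested rose on PMA in each line, by 4.61 to 6.72 on the log2 scale (edgeR). Hemoglobin and other red cell markers summed to 492 CPM in shNC DMSO library 1 and to at most 2.23 CPM elsewhere. Nothing in the labels says that the 2 libraries of a group came from separate cultures, so p-values measure the spread between these libraries, which may be technical, and less RNA per cell cannot be told apart from fewer cells that express a gene.

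Promoter sequences are shown for 3 genes that fell on PMA in all 4 lines and held a motif of the kind bound by E2F factors, which activate genes at the entry into DNA replication. The sequences are the 250 bases before a RefSeq transcription start (GRCh38.p14), 5′ to 3′ on the strand of the gene. UNG and FANCC each had 2 such windows and FANCA 1, and the window shown was chosen because it held an E2F-type motif. Capitals mark the motifs searched on both strands: E2F-type TTTCCCGC, TTTGGCGC, TTTCGCGC or TTTGCCGC, the cell cycle homology region TTTGAA, and the CCAAT box.
UNG (chr12:109097922-109098171, plus strand): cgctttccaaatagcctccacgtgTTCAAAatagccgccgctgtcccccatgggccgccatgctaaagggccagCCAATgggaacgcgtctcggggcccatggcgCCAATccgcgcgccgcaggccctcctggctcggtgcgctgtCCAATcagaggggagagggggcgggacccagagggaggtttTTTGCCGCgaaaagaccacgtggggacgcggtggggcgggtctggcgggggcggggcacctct
FANCC (chr9:95317710-95317959, minus strand): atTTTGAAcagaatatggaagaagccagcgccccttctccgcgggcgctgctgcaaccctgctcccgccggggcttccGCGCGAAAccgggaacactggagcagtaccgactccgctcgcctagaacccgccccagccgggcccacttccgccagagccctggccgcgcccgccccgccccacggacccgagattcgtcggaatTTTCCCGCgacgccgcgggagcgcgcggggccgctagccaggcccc
FANCA (chr16:89816648-89816897, minus strand): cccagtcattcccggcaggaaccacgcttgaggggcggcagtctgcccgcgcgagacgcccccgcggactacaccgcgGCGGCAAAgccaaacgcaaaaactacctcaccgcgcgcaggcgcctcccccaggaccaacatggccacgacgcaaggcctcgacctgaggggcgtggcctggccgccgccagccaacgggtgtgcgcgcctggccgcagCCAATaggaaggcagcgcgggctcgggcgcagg
UNG removes uracil from DNA, and FANCC and FANCA are subunits of the Fanconi core complex. The UNG window held TTTGCCGC 63 bases before the start, beside 3 CCAAT boxes and TTCAAA, the reverse complement of the cell cycle homology region. The FANCC window held TTTCCCGC at position -46 and GCGCGAAA, the reverse complement of TTTCGCGC, at position -172, and the FANCA window held GCGGCAAA, the reverse complement of TTTGCCGC, at position -172. A RefSeq promoter was found for 49 of the 57 genes. An E2F-type motif stood in at least 1 window of 3 of the 28 genes with a promoter that fell in all 4 lines, of 2 of the 9 that were not called in any line (PMS2 and XPC) and of 3.4% of all symbols. A CCAAT box stood in 15 of the 28, in 6 of the 9 and in 37.0% of all symbols, and the cell cycle homology region in 4 of the 28, in 1 of the 9 and in 16.1% of all symbols. A match describes letters only, and a missing motif says nothing of the factor.

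Most of the repair genes fell on PMA. The median log2 fold change was -1.99 in shUHRF1, -1.29 in shDNMT1, -1.29 in shDNMT3B and -1.79 in shNC for the 16 recombination genes, and -2.69, -1.84, -1.32 and -1.77 in the same order of lines for the 11 Fanconi anemia genes. In shUHRF1, 40 of 57 fell and 3 rose, in shDNMT1 35 fell and 5 rose, in shDNMT3B 33 fell and 3 rose, and in shNC 35 fell and 3 rose (edgeR's quasi-likelihood test on all 16 libraries, adjusted p under 0.05). Over all 16503 genes tested, 25.5% were lower and 29.4% higher in PMA in shUHRF1, 24.1% lower and 28.6% higher in shDNMT1, 19.7% lower and 25.2% higher in shDNMT3B, and 26.0% lower and 28.4% higher in shNC. The median log2 fold change of the 57 genes was -1.32 in shUHRF1, -0.93 in shDNMT1, -0.88 in shDNMT3B and -1.07 in shNC, where the median of all genes lay between -0.01 and 0.02. More than 10% of the exon bases of 14 of the 57 genes lie in another gene, so that their counts are less certain. The same 32 genes fell in all 4 lines, XRCC1 and ERCC1 rose in all 4, and 10 genes (PALB2, RAD50, XRCC5, TP53BP1, PMS2, OGG1, APEX1, XPA, XPC and ATM) were called in none. With the replicate number, which paired the libraries, as a block, 42 fell and 6 rose in shUHRF1, 40 fell and 8 rose in shDNMT1, 37 fell and 5 rose in shDNMT3B, and 39 fell and 6 rose in shNC. With that block, 32.5% of all genes were lower and 35.4% higher in PMA in shUHRF1, 31.0% lower and 34.4% higher in shDNMT1, 27.5% lower and 32.5% higher in shDNMT3B, and 32.6% lower and 34.5% higher in shNC. Of the 10 genes called in none, PALB2, RAD50, PMS2 and APEX1 were not called with the block either, and the other 6 were called in at least 1 line. Leaving out either library of a group moved the number of calls by at most 1.5 times in every line. Upper-quartile scaling instead of TMM shifted the all-gene median by -0.24 to -0.31 and gave 36 to 43 genes lower and 2 or 3 higher. Of all 16503 genes, 4542 to 5722 were lower and 3298 to 3787 higher with that scaling.

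**Figure D1:**
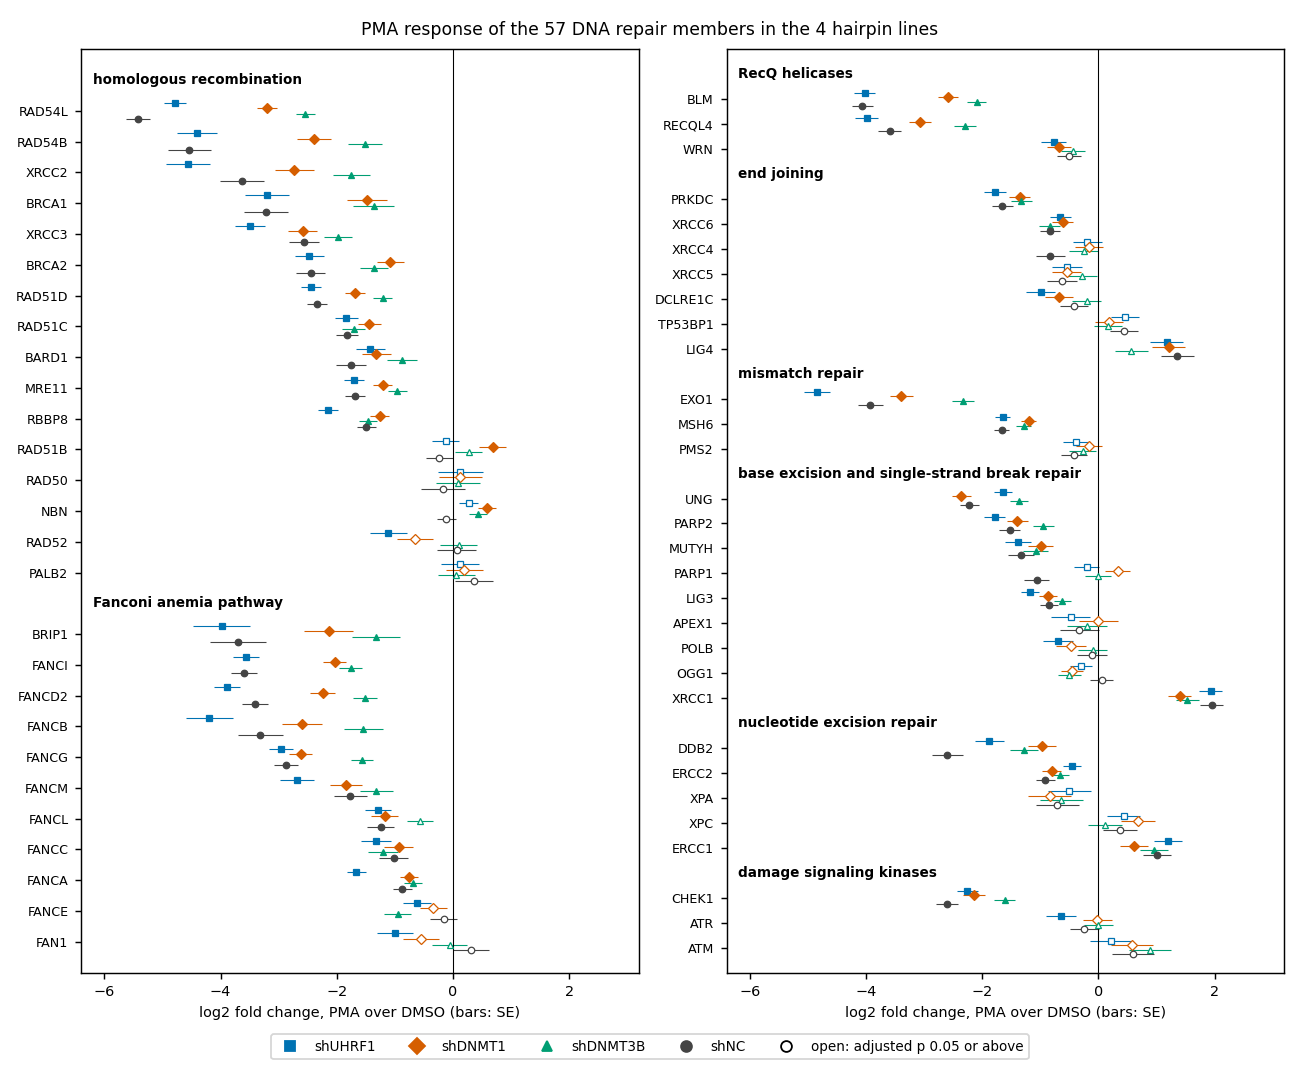
Log2 fold change of PMA over DMSO for each of the 57 genes, by pathway, in shUHRF1, shDNMT1, shDNMT3B and shNC. Points are the fitted values from 2 libraries a group. Bars are their SE from the fit of all 16 libraries, whose spread is shared over the 8 groups. Filled points passed adjusted p 0.05 and open points did not. RAD54L lies furthest to the left at -5.42 in shNC, and XRCC1 furthest to the right.

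Of the 16 homologous recombination genes, 12 fell in shUHRF1, 11 fell and 2 rose in shDNMT1, 11 fell and 1 rose in shDNMT3B, and 11 fell in shNC. RAD54L (GRCh38 chromosome 1, 46246461 to 46278480), a motor protein of strand exchange, showed the largest fall of the 57 in shDNMT3B and shNC, and the next largest after EXO1 in shUHRF1 and shDNMT1. In PMA, RAD54L had 1.70 and 2.22 CPM in shUHRF1, 7.02 and 6.91 CPM in shDNMT1, 6.68 and 7.80 CPM in shDNMT3B, and 0.893 and 1.08 CPM in shNC. In DMSO, RAD54L had 56.8 and 50.6 CPM in shUHRF1, 65.0 and 63.1 CPM in shDNMT1, 41.6 and 42.5 CPM in shDNMT3B, and 38.8 and 45.4 CPM in shNC. Its PMA libraries lay far below its DMSO libraries in every line, and the log2 fold change was -4.78 ± 0.19 in shUHRF1, -3.20 ± 0.17 in shDNMT1, -2.54 ± 0.17 in shDNMT3B and -5.42 ± 0.21 in shNC (edgeR, adjusted p at most 9.5e-08). RAD54B is its paralog, and 66.0% of its exon bases are shared with FSBP on the same strand, so that reads of the pair cannot be assigned with certainty. In PMA, RAD54B had 0.792 and 0.834 CPM in shUHRF1, 2.10 and 3.49 CPM in shDNMT1, 3.31 and 3.47 CPM in shDNMT3B, and 0.473 and 0.433 CPM in shNC. In DMSO, RAD54B had 19.7 and 14.98 CPM in shUHRF1, 16.9 and 12.1 CPM in shDNMT1, 8.62 and 10.8 CPM in shDNMT3B, and 8.52 and 12.9 CPM in shNC. The log2 fold change of RAD54B was -4.41 in shUHRF1, -2.39 in shDNMT1, -1.52 in shDNMT3B and -4.54 in shNC.

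BRCA1 (chromosome 17, 43044295 to 43170245) pairs with BARD1 as a ubiquitin ligase that starts recombination, and BRCA2 loads the recombinase on DNA. In PMA, BRCA1 had 4.98 and 7.51 CPM in shUHRF1, 13.5 and 25.0 CPM in shDNMT1, 15.3 and 20.9 CPM in shDNMT3B, and 4.15 and 6.64 CPM in shNC. In DMSO, BRCA1 had 46.0 and 68.2 CPM in shUHRF1, 49.3 and 57.3 CPM in shDNMT1, 37.4 and 55.8 CPM in shDNMT3B, and 41.2 and 58.1 CPM in shNC. The groups did not overlap in any line, and the log2 fold change was -3.20 ± 0.38 in shUHRF1, -1.48 ± 0.35 in shDNMT1, -1.37 ± 0.35 in shDNMT3B and -3.21 ± 0.38 in shNC (edgeR, adjusted p 1.2e-05 in shUHRF1, 0.0032 in shDNMT1, 0.0063 in shDNMT3B and 1.3e-05 in shNC). In shDNMT3B the call was lost without DMSO library 2 and without PMA library 1. In PMA, BRCA2 had 2.60 and 3.68 CPM in shUHRF1, 7.65 and 10.4 CPM in shDNMT1, 5.43 and 6.81 CPM in shDNMT3B, and 3.73 and 3.90 CPM in shNC. In DMSO, BRCA2 had 15.9 and 18.9 CPM in shUHRF1, 18.7 and 19.2 CPM in shDNMT1, 14.3 and 17.2 CPM in shDNMT3B, and 17.3 and 24.3 CPM in shNC. BRCA2 fell with log2 fold changes of -2.47 in shUHRF1, -1.08 in shDNMT1, -1.36 in shDNMT3B and -2.44 in shNC. BARD1 fell with -1.42 in shUHRF1, -1.32 in shDNMT1, -0.88 in shDNMT3B and -1.75 in shNC, and the shDNMT3B call was lost without DMSO library 2, PMA library 1 or PMA library 2. PALB2, which links both BRCA proteins, was not called in any line (0.06 to 0.36).

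RAD51D, XRCC2 and XRCC3 are paralogs of the recombinase that help it onto single strands. In PMA, RAD51D had 4.13 and 5.56 CPM in shUHRF1, 7.41 and 8.83 CPM in shDNMT1, 12.6 and 12.1 CPM in shDNMT3B, and 4.99 and 4.69 CPM in shNC. In DMSO, RAD51D had 24.9 and 27.6 CPM in shUHRF1, 25.0 and 26.9 CPM in shDNMT1, 27.5 and 29.4 CPM in shDNMT3B, and 24.6 and 24.6 CPM in shNC. Every PMA library lay below every DMSO library, and the log2 fold change was -2.44 in shUHRF1, -1.68 in shDNMT1, -1.21 in shDNMT3B and -2.34 in shNC. In PMA, XRCC2 had 0.906 and 0.626 CPM in shUHRF1, 1.82 and 3.35 CPM in shDNMT1, 2.80 and 3.12 CPM in shDNMT3B, and 0.578 and 1.15 CPM in shNC. In DMSO, XRCC2 had 16.9 and 19.8 CPM in shUHRF1, 14.5 and 19.2 CPM in shDNMT1, 8.51 and 11.3 CPM in shDNMT3B, and 9.10 and 11.9 CPM in shNC. XRCC2 fell by 4.56 on the log2 scale in shUHRF1, by 2.73 in shDNMT1, by 1.75 in shDNMT3B and by 3.63 in shNC. In PMA, XRCC3 had 1.70 and 2.85 CPM in shUHRF1, 3.01 and 3.63 CPM in shDNMT1, 4.51 and 4.75 CPM in shDNMT3B, and 2.31 and 2.96 CPM in shNC. In DMSO, XRCC3 had 27.3 and 23.6 CPM in shUHRF1, 19.2 and 20.5 CPM in shDNMT1, 17.7 and 18.8 CPM in shDNMT3B, and 13.0 and 18.0 CPM in shNC. XRCC3 fell in each line as well (-3.50 in shUHRF1, -2.58 in shDNMT1, -1.98 in shDNMT3B and -2.56 in shNC), but 76.7% of its exon bases lie over KLC1 on the opposite strand, and the strand setting of the counting is not given in the sources used here. RAD51C fell by 1.44 to 1.83 on the log2 scale, and RAD51B, not called in the other lines, rose in shDNMT1 (0.69 ± 0.23, edgeR, adjusted p = 0.025), a call lost without shDNMT1 DMSO library 2 or PMA library 1.

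End resection exposes the strand on which recombination starts, with RBBP8 and MRE11 among its nuclease factors. In PMA, RBBP8 had 5.72 and 7.16 CPM in shUHRF1, 9.80 and 10.5 CPM in shDNMT1, 10.8 and 11.4 CPM in shDNMT3B, and 10.5 and 11.6 CPM in shNC. In DMSO, RBBP8 had 27.0 and 30.1 CPM in shUHRF1, 25.6 and 23.1 CPM in shDNMT1, 30.4 and 30.7 CPM in shDNMT3B, and 28.8 and 33.3 CPM in shNC. RBBP8 fell in each line (-2.15 in shUHRF1, -1.26 in shDNMT1, -1.46 in shDNMT3B and -1.49 in shNC). In PMA, MRE11 had 10.9 and 10.7 CPM in shUHRF1, 14.3 and 19.8 CPM in shDNMT1, 14.1 and 16.2 CPM in shDNMT3B, and 9.30 and 9.60 CPM in shNC. In DMSO, MRE11 had 36.0 and 34.5 CPM in shUHRF1, 40.5 and 38.2 CPM in shDNMT1, 28.6 and 30.2 CPM in shDNMT3B, and 30.7 and 30.1 CPM in shNC. MRE11 fell in each line (-1.71 in shUHRF1, -1.21 in shDNMT1, -0.96 in shDNMT3B and -1.69 in shNC), while RAD50 and NBN, its partners in a complex, were not called lower. RAD50 was not called in any line (-0.17 to 0.13). NBN rose in shDNMT1 (0.58 ± 0.16) and shDNMT3B (0.43 ± 0.16) and was not called in shUHRF1 (0.27, adjusted p = 0.043 in edgeR with the replicate block) or shNC (-0.11). RAD50 shares 76.9% of its exon bases, the largest share of the 57, with the protein-coding gene ENSG00000283782 on the same strand, which averaged 4.78 CPM in shNC PMA and 14.7 CPM in shNC DMSO (-1.60). The RAD50 counts are therefore uncertain. The part of this overlap in them was not tested. The NBN call was lost without shDNMT1 PMA library 2, and in shDNMT3B without any of the 3 libraries DMSO 1, PMA 1 and PMA 2. RAD52 is an annealing protein. In PMA, RAD52 had 1.92 and 3.48 CPM in shUHRF1, 2.72 and 3.69 CPM in shDNMT1, 3.37 and 2.84 CPM in shDNMT3B, and 1.68 and 2.38 CPM in shNC. In DMSO, RAD52 had 6.82 and 4.76 CPM in shUHRF1, 4.51 and 5.51 CPM in shDNMT1, 3.07 and 2.75 CPM in shDNMT3B, and 1.95 and 1.91 CPM in shNC. RAD52, called in no other line (in shDNMT1 -0.65, adjusted p = 0.046 with the replicate block), fell in shUHRF1 (-1.11 ± 0.32, edgeR, adjusted p = 0.0098), and the call was lost without shUHRF1 DMSO library 1 or PMA library 1.

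The Fanconi anemia genes fell in 11 of 11 cases in shUHRF1, and in 9 of 11 in each of shDNMT1, shDNMT3B and shNC. FANCD2 (chromosome 3, 10026370 to 10101932) and FANCI form the clamp that is ubiquitinated at a crosslink. In PMA, FANCD2 had 5.09 and 6.95 CPM in shUHRF1, 13.9 and 20.2 CPM in shDNMT1, 20.7 and 19.6 CPM in shDNMT3B, and 4.52 and 5.77 CPM in shNC. In DMSO, FANCD2 had 94.2 and 83.5 CPM in shUHRF1, 79.5 and 81.6 CPM in shDNMT1, 54.7 and 60.8 CPM in shDNMT3B, and 49.2 and 59.7 CPM in shNC. The FANCD2 groups were far apart, with log2 fold changes of -3.89 ± 0.23 in shUHRF1, -2.24 ± 0.21 in shDNMT1, -1.52 ± 0.20 in shDNMT3B and -3.41 ± 0.23 in shNC (edgeR, adjusted p at most 5.9e-05). In PMA, FANCI had 5.94 and 8.62 CPM in shUHRF1, 15.8 and 18.1 CPM in shDNMT1, 17.0 and 20.4 CPM in shDNMT3B, and 4.47 and 6.42 CPM in shNC. In DMSO, FANCI had 88.5 and 82.7 CPM in shUHRF1, 69.1 and 69.6 CPM in shDNMT1, 62.7 and 63.9 CPM in shDNMT3B, and 59.8 and 70.7 CPM in shNC. FANCI followed closely, with -3.56 in shUHRF1, -2.04 in shDNMT1, -1.76 in shDNMT3B and -3.59 in shNC.

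The core complex that ubiquitinates the clamp holds FANCA, FANCB, FANCC, FANCE, FANCG, FANCL and FANCM. In PMA, FANCG had 6.51 and 8.34 CPM in shUHRF1, 8.75 and 8.89 CPM in shDNMT1, 13.9 and 12.6 CPM in shDNMT3B, and 4.94 and 6.14 CPM in shNC. In DMSO, FANCG had 64.5 and 50.6 CPM in shUHRF1, 57.2 and 51.3 CPM in shDNMT1, 42.4 and 36.2 CPM in shDNMT3B, and 44.4 and 36.3 CPM in shNC. FANCG fell with -2.96 in shUHRF1, -2.62 in shDNMT1, -1.57 in shDNMT3B and -2.87 in shNC. In PMA, FANCB had 0.396 and 0.209 CPM in shUHRF1, 0.669 and 1.23 CPM in shDNMT1, 1.09 and 1.28 CPM in shDNMT3B, and 0.473 and 0.361 CPM in shNC. In DMSO, FANCB had 6.34 and 5.23 CPM in shUHRF1, 6.57 and 4.78 CPM in shDNMT1, 2.91 and 3.97 CPM in shDNMT3B, and 4.37 and 4.20 CPM in shNC. FANCB fell with -4.19 in shUHRF1, -2.61 in shDNMT1, -1.54 in shDNMT3B and -3.32 in shNC. Per kilobase of all its annotated exons merged, it had the lowest level of the 57 in shNC DMSO (0.322 CPM per kb). That length can exceed that of 1 transcript, so ranks by it depend on the annotation. In PMA, FANCA had 17.3 and 20.6 CPM in shUHRF1, 34.9 and 37.0 CPM in shDNMT1, 23.1 and 27.5 CPM in shDNMT3B, and 19.8 and 23.2 CPM in shNC. In DMSO, FANCA had 63.6 and 56.3 CPM in shUHRF1, 59.7 and 61.6 CPM in shDNMT1, 39.1 and 42.3 CPM in shDNMT3B, and 36.1 and 42.4 CPM in shNC. FANCA fell less (-1.66 in shUHRF1, -0.75 in shDNMT1, -0.68 in shDNMT3B and -0.87 in shNC), and its call in shDNMT3B was lost without PMA library 1. In PMA, FANCE had 11.8 and 13.4 CPM in shUHRF1, 17.1 and 17.7 CPM in shDNMT1, 9.94 and 13.8 CPM in shDNMT3B, and 20.5 and 20.6 CPM in shNC. In DMSO, FANCE had 17.4 and 21.3 CPM in shUHRF1, 19.2 and 24.7 CPM in shDNMT1, 19.3 and 26.5 CPM in shDNMT3B, and 19.1 and 26.9 CPM in shNC. FANCE fell in shUHRF1 (-0.62 ± 0.23) and shDNMT3B (-0.95 ± 0.23) and was not called in shDNMT1 (-0.34) or shNC (-0.16), and the calls were lost without shUHRF1 DMSO library 2, PMA library 1 or PMA library 2 and without shDNMT3B DMSO library 2 or PMA library 1. FANCC and FANCM fell in all 4 lines and FANCL in all but shDNMT3B, by 0.93 to 2.69 on the log2 scale (FANCL in shDNMT3B -0.57, edgeR, adjusted p = 0.055, and 0.0014 with the replicate block). FANCC lost its call in shNC without DMSO library 2 and in shDNMT1 without DMSO library 2 or PMA library 2.

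BRIP1 is a helicase bound to BRCA1, and FAN1 a nuclease recruited by the clamp. In PMA, BRIP1 had 1.02 and 1.18 CPM in shUHRF1, 2.68 and 5.68 CPM in shDNMT1, 4.80 and 6.52 CPM in shDNMT3B, and 0.683 and 1.80 CPM in shNC. In DMSO, BRIP1 had 15.1 and 19.8 CPM in shUHRF1, 15.7 and 20.5 CPM in shDNMT1, 10.04 and 18.3 CPM in shDNMT3B, and 13.2 and 18.2 CPM in shNC. BRIP1 fell with -3.98 ± 0.49 in shUHRF1, -2.14 ± 0.42 in shDNMT1, -1.33 ± 0.41 in shDNMT3B and -3.71 ± 0.48 in shNC (edgeR, adjusted p 1.7e-05 in shUHRF1, 9.5e-04 in shDNMT1, 0.019 in shDNMT3B and 3.0e-05 in shNC), and in shDNMT3B the call was lost without DMSO library 2 or PMA library 1. FAN1, not called in the other lines, fell in shUHRF1 (-1.004 ± 0.31), a call lost without shUHRF1 DMSO library 1 or PMA library 1.

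Among the RecQ helicases, BLM (chromosome 15, 90717346 to 90816166), which dissolves recombination intermediates, and RECQL4, which also acts when replication starts, fell in all 4 lines. In PMA, BLM had 4.13 and 4.24 CPM in shUHRF1, 12.8 and 13.2 CPM in shDNMT1, 12.5 and 10.7 CPM in shDNMT3B, and 3.10 and 3.97 CPM in shNC. In DMSO, BLM had 74.8 and 61.4 CPM in shUHRF1, 83.9 and 72.6 CPM in shDNMT1, 50.2 and 49.1 CPM in shDNMT3B, and 59.6 and 58.1 CPM in shNC. The log2 fold change of BLM was -4.02 ± 0.18 in shUHRF1, -2.59 ± 0.16 in shDNMT1, -2.10 ± 0.16 in shDNMT3B and -4.07 ± 0.18 in shNC (edgeR, adjusted p at most 4.3e-07). In PMA, RECQL4 had 10.1 and 13.9 CPM in shUHRF1, 21.8 and 20.7 CPM in shDNMT1, 25.4 and 26.4 CPM in shDNMT3B, and 8.15 and 11.3 CPM in shNC. In DMSO, RECQL4 had 199 and 182 CPM in shUHRF1, 180.0 and 177 CPM in shDNMT1, 134 and 121 CPM in shDNMT3B, and 114 and 119.9 CPM in shNC. Per kilobase of merged exons, RECQL4 ranked 4 of the 57 genes in shNC DMSO (25.9 CPM per kb) and 21 in shNC PMA (2.16 CPM per kb). Its log2 fold changes were -3.99 in shUHRF1, -3.07 in shDNMT1, -2.30 in shDNMT3B and -3.59 in shNC. In PMA, WRN had 15.4 and 21.3 CPM in shUHRF1, 17.4 and 23.3 CPM in shDNMT1, 18.5 and 18.5 CPM in shDNMT3B, and 18.8 and 22.2 CPM in shNC. In DMSO, WRN had 29.7 and 32.9 CPM in shUHRF1, 32.6 and 32.3 CPM in shDNMT1, 21.9 and 28.2 CPM in shDNMT3B, and 25.3 and 33.1 CPM in shNC. WRN, the RecQ helicase with an exonuclease, fell in shUHRF1 (-0.77) and shDNMT1 (-0.68) and was not called in shDNMT3B (-0.44) or shNC (-0.51), where it passed with the replicate block (edgeR, adjusted p = 0.014 and 0.0035). Its calls were lost without shUHRF1 PMA library 1 and without shDNMT1 DMSO library 1, DMSO library 2 or PMA library 1.

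End joining was split, with 3 of 7 genes lower and 1 higher in shNC, against 26.0% and 28.4% of all genes. The kinase PRKDC and its DNA-end binding partner XRCC6 fell in all 4 lines, LIG4, the ligase of the pathway, rose in 3, and the other 4 genes were called in at most 2 lines. In PMA, PRKDC had 143 and 172 CPM in shUHRF1, 192 and 240.2 CPM in shDNMT1, 179 and 197 CPM in shDNMT3B, and 158 and 176 CPM in shNC. In DMSO, PRKDC had 486 and 596 CPM in shUHRF1, 548 and 558 CPM in shDNMT1, 479 and 467 CPM in shDNMT3B, and 509 and 541 CPM in shNC. PRKDC fell with -1.78 ± 0.18 in shUHRF1, -1.35 ± 0.18 in shDNMT1, -1.33 ± 0.18 in shDNMT3B and -1.65 ± 0.18 in shNC (edgeR, adjusted p at most 6.3e-05). In PMA, XRCC6 had 289 and 249 CPM in shUHRF1, 296 and 251 CPM in shDNMT1, 259 and 231 CPM in shDNMT3B, and 294 and 243 CPM in shNC. In DMSO, XRCC6 had 400.3 and 446 CPM in shUHRF1, 426 and 414 CPM in shDNMT1, 469 and 408 CPM in shDNMT3B, and 500.4 and 459.5 CPM in shNC. XRCC6 fell by 0.62 to 0.84 on the log2 scale, while XRCC5, the other subunit of the same dimer, had -0.28 to -0.63 and was not called. XRCC5 passed, with the replicate block, as lower in shUHRF1, shDNMT1 and shNC (edgeR, adjusted p = 2.9e-04, 4.6e-04 and 9.4e-05). The XRCC6 call was lost without shUHRF1 PMA library 2 and without shDNMT1 PMA library 2. In PMA, LIG4 had 23.9 and 32.9 CPM in shUHRF1, 17.7 and 30.2 CPM in shDNMT1, 15.7 and 17.4 CPM in shDNMT3B, and 26.3 and 34.4 CPM in shNC. In DMSO, LIG4 had 11.9 and 13.3 CPM in shUHRF1, 9.50 and 11.1 CPM in shDNMT1, 10.4 and 12.0 CPM in shDNMT3B, and 9.10 and 14.6 CPM in shNC. LIG4 rose in shUHRF1 (1.17 ± 0.28), shDNMT1 (1.21 ± 0.29) and shNC (1.35 ± 0.28) and was not called in shDNMT3B (0.57 ± 0.28, edgeR, adjusted p = 0.12; with the replicate block 0.0047), and its call in shDNMT1 was lost without PMA library 2. XRCC4, the scaffold of that ligase, not called in the other lines, fell in shNC (-0.83 ± 0.24), a call lost without DMSO library 1, PMA library 1 or PMA library 2. The end-trimming nuclease DCLRE1C fell in shUHRF1 (-0.997) and shDNMT1 (-0.67), but not without shUHRF1 PMA library 1 and not without shDNMT1 DMSO library 1, DMSO library 2 or PMA library 1. TP53BP1, which protects ends from resection, was not called (0.17 to 0.45). DCLRE1C, with the replicate block, also passed as lower in shNC (-0.42, edgeR, adjusted p = 0.013). TP53BP1 passed as higher with it in shUHRF1 and shNC (adjusted p = 0.0048 and 0.0052).

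**Figure D2:**
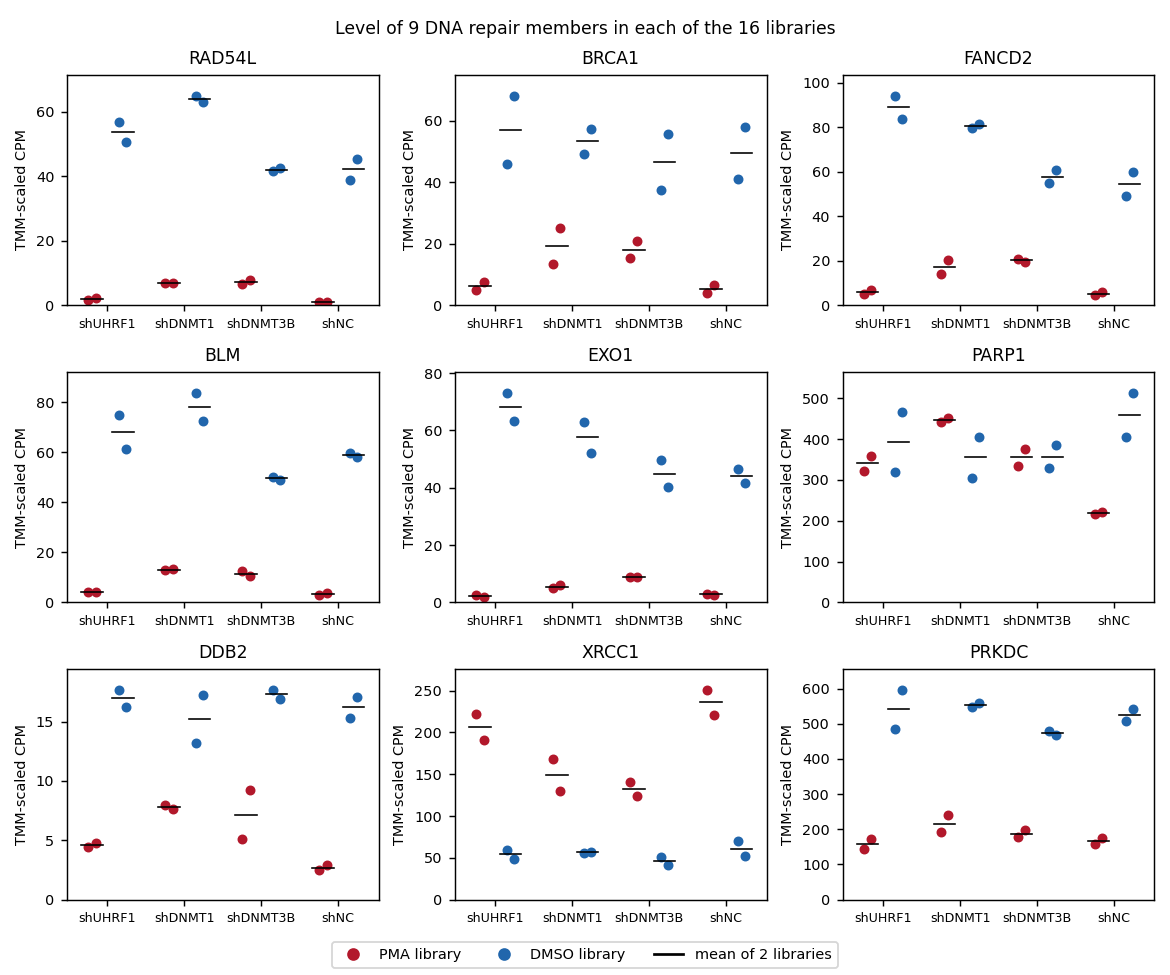
TMM-scaled CPM of 9 genes in each of the 16 libraries, with PMA libraries left of DMSO libraries in each line and shNC last. Points are single libraries and short lines the means of 2. PARP1 is lower in both PMA libraries than in both DMSO libraries in shNC alone, and XRCC1 is higher in PMA in all 4 lines.

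Of the mismatch repair genes, EXO1 (chromosome 1, 241847967 to 241895148) and MSH6 fell in each line. In PMA, EXO1 had 2.72 and 2.02 CPM in shUHRF1, 4.92 and 6.09 CPM in shDNMT1, 9.03 and 8.86 CPM in shDNMT3B, and 3.10 and 2.67 CPM in shNC. In DMSO, EXO1 had 73.2 and 63.4 CPM in shUHRF1, 63.1 and 52.1 CPM in shDNMT1, 49.8 and 40.2 CPM in shDNMT3B, and 46.5 and 41.8 CPM in shNC. EXO1, an exonuclease that also resects broken ends, fell with -4.84 ± 0.22 in shUHRF1, -3.39 ± 0.20 in shDNMT1, -2.33 ± 0.19 in shDNMT3B and -3.93 ± 0.21 in shNC (edgeR, adjusted p at most 7.3e-07). In PMA, MSH6 had 26.9 and 25.2 CPM in shUHRF1, 29.2 and 28.8 CPM in shDNMT1, 22.3 and 21.9 CPM in shDNMT3B, and 24.1 and 25.4 CPM in shNC. In DMSO, MSH6 had 79.5 and 83.2 CPM in shUHRF1, 68.5 and 64.7 CPM in shDNMT1, 53.9 and 54.1 CPM in shDNMT3B, and 72.3 and 84.2 CPM in shNC. MSH6, which recognises mismatches, fell with -1.64 in shUHRF1, -1.20 in shDNMT1, -1.29 in shDNMT3B and -1.66 in shNC. In PMA, PMS2 had 9.23 and 12.2 CPM in shUHRF1, 15.1 and 14.2 CPM in shDNMT1, 12.9 and 14.5 CPM in shDNMT3B, and 11.7 and 12.0 CPM in shNC. In DMSO, PMS2 had 13.3 and 14.6 CPM in shUHRF1, 16.9 and 15.9 CPM in shDNMT1, 17.1 and 16.03 CPM in shDNMT3B, and 11.6 and 20.04 CPM in shNC. PMS2 was not called (-0.16 to -0.42), and its counts are uncertain because near-identical pseudogene copies share its reads.

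XRCC1 (chromosome 19, 43543311 to 43580473) and LIG3, a scaffold and a ligase that act as a pair in single-strand break repair, moved in opposite directions. In PMA, XRCC1 had 222 and 191 CPM in shUHRF1, 168 and 130.5 CPM in shDNMT1, 141 and 123 CPM in shDNMT3B, and 251 and 221 CPM in shNC. In DMSO, XRCC1 had 59.4 and 49.0 CPM in shUHRF1, 56.3 and 57.1 CPM in shDNMT1, 50.5 and 40.9 CPM in shDNMT3B, and 69.8 and 52.5 CPM in shNC. Each PMA library was above every DMSO library, with log2 fold changes of 1.93 ± 0.20 in shUHRF1, 1.40 ± 0.20 in shDNMT1, 1.53 ± 0.20 in shDNMT3B and 1.95 ± 0.20 in shNC (edgeR, adjusted p at most 6.7e-05). Per kilobase of merged exons, XRCC1 ranked 1 of the 57 genes in shNC PMA (86.0 CPM per kb) and 6 in shNC DMSO (22.3 CPM per kb). XRCC6 followed at 82.8 CPM per kb in shNC PMA, and ranks by this length depend on the exons annotated for each gene. In PMA, LIG3 had 10.4 and 10.98 CPM in shUHRF1, 13.1 and 13.8 CPM in shDNMT1, 14.4 and 13.9 CPM in shDNMT3B, and 13.1 and 15.2 CPM in shNC. In DMSO, LIG3 had 24.4 and 24.0 CPM in shUHRF1, 24.3 and 24.9 CPM in shDNMT1, 19.6 and 23.9 CPM in shDNMT3B, and 24.1 and 26.7 CPM in shNC. LIG3 fell with -1.18 ± 0.15 in shUHRF1, -0.87 ± 0.15 in shDNMT1, -0.62 ± 0.15 in shDNMT3B and -0.85 ± 0.15 in shNC (edgeR, adjusted p 3.2e-05 in shUHRF1, 3.9e-04 in shDNMT1, 0.0053 in shDNMT3B and 4.5e-04 in shNC), in shDNMT3B only while DMSO library 2 was kept. LIG3 shares 29.1% of its exon bases with RFFL and XRCC1 17.6% with a long noncoding RNA, both on the opposite strand.

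PARP1 (chromosome 1, 226360210 to 226408154) and PARP2 sense strand breaks and mark them with poly(ADP-ribose). In PMA, PARP1 had 323 and 359 CPM in shUHRF1, 442 and 452 CPM in shDNMT1, 335 and 375 CPM in shDNMT3B, and 217 and 222 CPM in shNC. In DMSO, PARP1 had 318 and 467 CPM in shUHRF1, 304 and 406 CPM in shDNMT1, 328 and 386 CPM in shDNMT3B, and 406 and 514 CPM in shNC. PARP1 fell in shNC (-1.07 ± 0.22, edgeR, adjusted p = 0.0012), where its groups did not overlap, and was not called in shUHRF1 (-0.20 ± 0.22), shDNMT1 (0.33 ± 0.22) or shDNMT3B (-0.01 ± 0.22). In PMA, PARP2 had 9.17 and 10.8 CPM in shUHRF1, 8.22 and 8.01 CPM in shDNMT1, 11.3 and 11.6 CPM in shDNMT3B, and 8.36 and 8.30 CPM in shNC. In DMSO, PARP2 had 30.8 and 38.0 CPM in shUHRF1, 20.4 and 22.5 CPM in shDNMT1, 20.7 and 23.6 CPM in shDNMT3B, and 21.0 and 26.9 CPM in shNC. PARP2 fell in all 4 lines (-1.79 in shUHRF1, -1.40 in shDNMT1, -0.95 in shDNMT3B and -1.52 in shNC).

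The DNA glycosylases open base excision repair. In PMA, UNG had 14.7 and 11.4 CPM in shUHRF1, 8.46 and 9.10 CPM in shDNMT1, 14.5 and 14.3 CPM in shDNMT3B, and 9.56 and 9.67 CPM in shNC. In DMSO, UNG had 38.5 and 42.8 CPM in shUHRF1, 47.96 and 42.1 CPM in shDNMT1, 37.5 and 36.4 CPM in shDNMT3B, and 46.8 and 43.1 CPM in shNC. UNG fell with -1.64 ± 0.16 in shUHRF1, -2.36 ± 0.16 in shDNMT1, -1.36 ± 0.15 in shDNMT3B and -2.22 ± 0.16 in shNC (edgeR, adjusted p at most 1.3e-05), and MUTYH, which removes adenine paired with an oxidised guanine, fell by 0.99 to 1.38 on the log2 scale. In PMA, OGG1 had 9.79 and 10.8 CPM in shUHRF1, 8.27 and 9.44 CPM in shDNMT1, 6.11 and 5.96 CPM in shDNMT3B, and 8.51 and 11.5 CPM in shNC. In DMSO, OGG1 had 12.9 and 12.4 CPM in shUHRF1, 12.5 and 11.7 CPM in shDNMT1, 8.14 and 8.96 CPM in shDNMT3B, and 8.42 and 10.8 CPM in shNC. OGG1, which removes the oxidised guanine itself, was not called in any line (-0.29 in shUHRF1, -0.45 in shDNMT1, -0.50 in shDNMT3B and 0.05 in shNC). OGG1 passed as lower with the replicate block in shDNMT1 and shDNMT3B (edgeR, adjusted p = 0.023 and 0.023). The endonuclease APEX1 was not called in any line (-0.48 to 0.00) and the gap-filling polymerase POLB, called in no other line (in shDNMT1 -0.47, edgeR, adjusted p = 0.0059 with the replicate block), fell in shUHRF1 (-0.70 ± 0.25), a call lost without DMSO library 1 or PMA library 2.

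In nucleotide excision repair 2 genes fell, 1 rose and 2 were not called, in each line. Over all genes tested, 19.7 to 26.0% were lower and 25.2 to 29.4% higher in PMA, depending on the line. In PMA, DDB2 had 4.41 and 4.80 CPM in shUHRF1, 7.93 and 7.59 CPM in shDNMT1, 5.08 and 9.22 CPM in shDNMT3B, and 2.47 and 2.89 CPM in shNC. In DMSO, DDB2 had 17.7 and 16.2 CPM in shUHRF1, 13.2 and 17.3 CPM in shDNMT1, 17.7 and 16.9 CPM in shDNMT3B, and 15.3 and 17.1 CPM in shNC. DDB2 (chromosome 11, 47214465 to 47239217), a sensor of ultraviolet damage, fell with -1.88 ± 0.25 in shUHRF1, -0.97 ± 0.24 in shDNMT1, -1.28 ± 0.24 in shDNMT3B and -2.60 ± 0.26 in shNC (edgeR, adjusted p 3.7e-05 in shUHRF1, 0.0046 in shDNMT1, 9.3e-04 in shDNMT3B and 3.3e-06 in shNC). In PMA, ERCC1 had 149.9 and 143 CPM in shUHRF1, 132 and 101 CPM in shDNMT1, 134 and 117 CPM in shDNMT3B, and 183 and 164 CPM in shNC. In DMSO, ERCC1 had 72.1 and 55.5 CPM in shUHRF1, 79.2 and 72.7 CPM in shDNMT1, 79.3 and 51.0 CPM in shDNMT3B, and 104 and 69.1 CPM in shNC. ERCC1, a subunit of the nuclease that cuts 5′ of the lesion, rose with 1.20 ± 0.24 in shUHRF1, 0.61 ± 0.24 in shDNMT1, 0.95 ± 0.24 in shDNMT3B and 1.01 ± 0.24 in shNC (edgeR, adjusted p 0.0011 in shUHRF1, 0.048 in shDNMT1, 0.0066 in shDNMT3B and 0.0035 in shNC), and its call was lost in shDNMT1 without DMSO library 1, DMSO library 2 or PMA library 1, and in shDNMT3B without DMSO library 2. In PMA, ERCC2 had 37.2 and 45.5 CPM in shUHRF1, 39.8 and 30.2 CPM in shDNMT1, 36.0 and 37.8 CPM in shDNMT3B, and 34.7 and 32.2 CPM in shNC. In DMSO, ERCC2 had 58.2 and 55.4 CPM in shUHRF1, 58.9 and 63.7 CPM in shDNMT1, 59.6 and 57.5 CPM in shDNMT3B, and 65.6 and 60.5 CPM in shNC. The helicase ERCC2 fell by 0.46 to 0.91 on the log2 scale, in shUHRF1 not without DMSO library 1, DMSO library 2 or PMA library 1. XPA and XPC, which verify and find lesions, had -0.84 to -0.50 and 0.12 to 0.68 and were not called. XPA passed as lower with the replicate block in all 4 lines (edgeR, adjusted p = 0.025 in shUHRF1, 6.5e-04 in shDNMT1, 0.0067 in shDNMT3B and 0.0026 in shNC). XPC passed as higher with it in shUHRF1, shDNMT1 and shNC (adjusted p = 0.0079, 1.8e-04 and 0.02).

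Of the signaling kinases, CHEK1, which stalls the cell cycle when forks stall, fell in all 4 lines. In PMA, CHEK1 had 8.72 and 9.66 CPM in shUHRF1, 9.84 and 11.1 CPM in shDNMT1, 13.3 and 13.2 CPM in shDNMT3B, and 7.73 and 6.79 CPM in shNC. In DMSO, CHEK1 had 35.9 and 51.8 CPM in shUHRF1, 45.2 and 47.0 CPM in shDNMT1, 38.5 and 42.4 CPM in shDNMT3B, and 43.0 and 45.4 CPM in shNC. Its log2 fold change was -2.26 ± 0.18 in shUHRF1, -2.14 ± 0.18 in shDNMT1, -1.61 ± 0.18 in shDNMT3B and -2.60 ± 0.19 in shNC (edgeR, adjusted p at most 1.1e-05). In PMA, ATR had 17.2 and 25.6 CPM in shUHRF1, 22.7 and 33.9 CPM in shDNMT1, 22.6 and 26.0 CPM in shDNMT3B, and 14.1 and 21.7 CPM in shNC. In DMSO, ATR had 35.6 and 31.1 CPM in shUHRF1, 28.4 and 29.1 CPM in shDNMT1, 23.2 and 25.3 CPM in shDNMT3B, and 18.9 and 23.4 CPM in shNC. ATR, the kinase above CHEK1, was not called in the other lines and fell in shUHRF1 (-0.64 ± 0.25), a call lost without DMSO library 1, DMSO library 2 or PMA library 1. In PMA, ATM had 36.3 and 58.7 CPM in shUHRF1, 38.8 and 71.98 CPM in shDNMT1, 33.5 and 50.5 CPM in shDNMT3B, and 33.8 and 51.4 CPM in shNC. In DMSO, ATM had 36.3 and 46.0 CPM in shUHRF1, 30.7 and 43.5 CPM in shDNMT1, 19.8 and 25.7 CPM in shDNMT3B, and 21.9 and 34.7 CPM in shNC. ATM, the kinase that answers broken ends, had positive values in each line (0.21 in shUHRF1, 0.58 in shDNMT1, 0.88 in shDNMT3B and 0.59 in shNC) that did not pass. Each PMA library of ATM was at or above the DMSO library with the same line and number. With the replicate block ATM passed as higher in shDNMT1, shDNMT3B and shNC (edgeR, adjusted p = 8.8e-04, 6.6e-06 and 4.1e-04) and not in shUHRF1 (0.23).

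The fall was weaker in libraries labelled shDNMT1 and shDNMT3B than in shNC for some recombination (3 and 5 of 16), Fanconi anemia (2 and 4 of 11) and RecQ genes (1 and 2 of 3). The PMA response minus that of shNC was higher for 8 of 57 genes in shDNMT1 and for 15 in shDNMT3B, lower for 0 in both, and passed for 0 in shUHRF1 (edgeR's quasi-likelihood test of the interaction). For all genes tested, this difference was higher for 5.64% and lower for 1.07% in shDNMT1, higher for 5.08% and lower for 1.7% in shDNMT3B, and higher for 0.739% and lower for 0.109% in shUHRF1. Of the shUHRF1 differences, 10 had an unadjusted p under 0.05 (edgeR) and DESeq2 called 1 lower, against 101 lower of all 16503 genes. With upper-quartile scaling, 10 of the 57 had an unadjusted p under 0.05 (edgeR), against 1964 of the 16503. RAD54L had differences that held without any one of the 8 libraries: 2.22 ± 0.26 in shDNMT1 and 2.88 ± 0.26 in shDNMT3B (edgeR, adjusted p 2.3e-04 and 4.2e-05). FANCI (1.56 ± 0.29 and 1.83 ± 0.29) and BLM (1.48 ± 0.23 and 1.97 ± 0.23) also passed in both lines with each library left out. In shDNMT3B, RAD54B (3.02 ± 0.48), FANCD2 (1.89 ± 0.29), EXO1 (1.60 ± 0.27) and RECQL4 (1.29 ± 0.25) did so too. PARP1, whose PMA libraries lay above its DMSO libraries in those labelled shDNMT1 without passing (edgeR, adjusted p = 0.22, and 0.026 with the replicate block), had a difference of 1.40 ± 0.31 there (edgeR, adjusted p = 0.016), of 1.06 ± 0.31 in shDNMT3B (0.061) and of 0.86 ± 0.31 in shUHRF1 (0.26). With the replicate block the last 2 passed as well (adjusted p = 2.6e-04 and 0.0051).

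The number of differences called in shDNMT1 was 8 without shNC DMSO library 1, 4 without shNC DMSO library 2, 4 and 5 without shDNMT1 DMSO library 1 or 2, 3 and 4 without shNC PMA library 1 or 2, and 9 and 4 without shDNMT1 PMA library 1 or 2. In shDNMT3B it was 12 and 9 without shNC DMSO library 1 or 2, 9 and 11 without shDNMT3B DMSO library 1 or 2, 8 and 10 without shNC PMA library 1 or 2, and 8 and 9 without shDNMT3B PMA library 1 or 2. The replicate block raised the calls: 13 higher and 1 lower in shDNMT1, 22 higher and 2 lower in shDNMT3B, and 1 higher and 4 lower in shUHRF1. With that block, 12.8% of all genes were higher and 5.81% lower in shDNMT1, 12.6% higher and 6.97% lower in shDNMT3B, and 6.02% higher and 2.47% lower in shUHRF1. No call without the block was lost with it.

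Within PMA, 7 of 16 recombination, 5 of 11 Fanconi anemia and 2 of 3 RecQ genes were higher in libraries labelled shDNMT1 than in shNC, and as many in those labelled shDNMT3B, and these comparisons share the 2 shNC PMA libraries with each other and with the differences above. In shDNMT1, 17 of 57 genes were higher and 1 lower, against 8.5% of all genes higher and 6.35% lower. In shDNMT3B, 19 were higher and 4 lower, against 11.3% of all genes higher and 9.05% lower. With upper-quartile scaling 22 were higher and 1 lower in shDNMT3B, against 2347 and 1027 of all 16503 genes. With the replicate block 22 were higher and 2 lower in shDNMT1, against 16.3% and 15.1% of all genes, and 25 higher and 7 lower in shDNMT3B, against 20.5% and 19.5%. In shUHRF1, 1 was higher and 1 lower, against 2.04% of all genes higher and 1.65% lower, and with the replicate block 3 and 2, against 8.35% and 6.88%. RAD54L was higher by 2.82 ± 0.21 on the log2 scale in shDNMT1 and by 2.88 ± 0.21 in shDNMT3B (edgeR, adjusted p 3.9e-06 and 4.7e-06), from the PMA values given above, which did not overlap those of shNC. RAD54B (2.58 ± 0.39 and 2.88 ± 0.39), FANCD2 (1.73 ± 0.22 and 1.98 ± 0.22), FANCI (1.64 ± 0.21 and 1.79 ± 0.21), BLM (1.89 ± 0.18 and 1.72 ± 0.18), RECQL4 (1.13 ± 0.19 and 1.42 ± 0.19) and DDB2 (1.54 ± 0.26 and 1.41 ± 0.27) likewise passed in both lines with each of the 4 libraries left out. In shDNMT3B this also held for RAD51D (1.34 ± 0.18), FANCG (1.26 ± 0.20) and EXO1 (1.62 ± 0.21).

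The remaining calls in PMA each needed at least 1 library. BRCA1 (1.84 ± 0.37 and 1.76 ± 0.37), BRIP1 (1.78 ± 0.49 and 2.23 ± 0.49) and XRCC2 (1.59 ± 0.40 and 1.81 ± 0.39) were higher in libraries labelled shDNMT1, but not without shNC PMA library 1 or shDNMT1 PMA library 2, and in shDNMT3B, but not without shNC PMA library 1. PARP1 was higher in both (1.03 ± 0.22 and 0.69 ± 0.22) and did not pass in shDNMT1 without shNC PMA library 1 or 2, or in shDNMT3B without any one of its 4 libraries. XRCC1, which PMA raised, was lower than in shNC in both (-0.66 ± 0.19 and -0.84 ± 0.19, edgeR, adjusted p 0.036 and 0.0095), and the calls were lost in shDNMT1 without shNC PMA library 1, shNC PMA library 2 or shDNMT1 PMA library 2, and in shDNMT3B without shNC PMA library 1 or shDNMT3B PMA library 2. LIG4 (-0.87 ± 0.28), FANCE (-0.80 ± 0.24) and OGG1 (-0.72 ± 0.20) were lower in shDNMT3B, and each lost its call without at least 3 of the 4 libraries. Without shNC PMA library 1 or 2, 7 and 13 genes were called in shDNMT1, and without shDNMT1 PMA library 1 or 2, 17 and 9. In shDNMT3B, 12 and 14 were called without shNC PMA library 1 or 2, and 16 and 15 without shDNMT3B PMA library 1 or 2. In shUHRF1, RAD54L (0.99 ± 0.23) and RBBP8 (-0.78 ± 0.17) passed (edgeR, adjusted p 0.039 and 0.024), and 0 genes were called without any one of the 4 libraries.

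**Figure D3:**
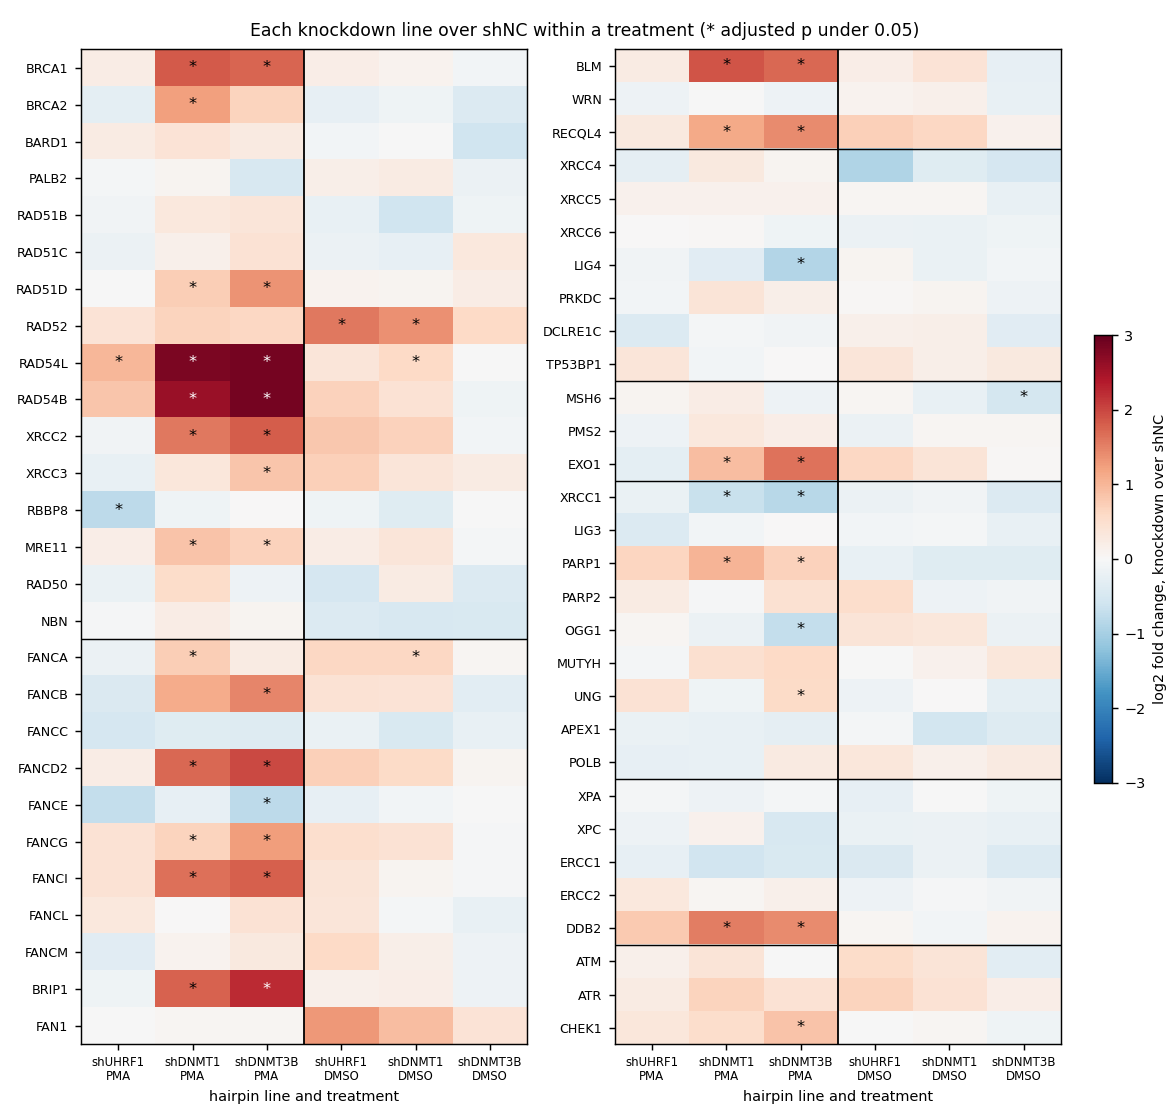
Log2 fold change of each knockdown line over shNC for the 57 genes, by pathway (separated by lines), within PMA (left 3 columns of each panel) and within DMSO (right 3 columns). Red is higher in the knockdown line and stars mark adjusted p under 0.05. The stars gather in shDNMT1 and shDNMT3B under PMA, with 18 and 23 of the 57 genes, and 1 to 3 genes have one in DMSO.

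Within DMSO few of the genes were called in the fit without the replicate block. The paper's enrichment of DNA repair in shUHRF1 and shDNMT1 used its own calls with a fold change cut-off and another gene set. The counts here do not test it. In shUHRF1 1 of 57 genes was higher and 0 were lower, against 0.17% of all genes higher and 1.15% lower, in shDNMT1 3 were higher and 0 lower, against 0.57% and 3.39%, and in shDNMT3B 0 were higher and 1 lower, against 1.62% and 2.89%. RAD52 was the gene higher in shUHRF1 (1.58 ± 0.32, edgeR, adjusted p = 0.029) and among those higher in shDNMT1 (1.37 ± 0.32, 0.031), and its 4 libraries in these lines, at 4.51 to 6.82 CPM, lay above both shNC libraries, at 1.91 and 1.95 CPM. RAD54L (0.60 ± 0.15) and FANCA (0.63 ± 0.16) were the others higher in shDNMT1, and MSH6 was lower in shDNMT3B (-0.54 ± 0.13). With any one of the 4 libraries of a comparison left out, these calls were lost, except that of RAD52 in shUHRF1 without shUHRF1 DMSO library 2. With the replicate block 14 genes were higher and 3 lower in shUHRF1, 10 higher and 1 lower in shDNMT1, and 0 higher and 5 lower in shDNMT3B. The background with that block was 4.59% higher and 6.87% lower in shUHRF1, 4.34% and 9.23% in shDNMT1, and 7.28% and 11.4% in shDNMT3B. The 2 shNC DMSO libraries are shared by these comparisons, and library 1 of them held the hemoglobin reads described above, whose part in the calls was not tested beyond leaving that library out.

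Summed up by pathway, each gene was set relative to its mean in shNC DMSO. The geometric mean of the 16 recombination genes stood in PMA at 24.6 and 29.6% in shUHRF1, 42.6 and 54.7% in shDNMT1, 45.3 and 50.8% in shDNMT3B, and 24.2 and 28.2% in shNC, and in DMSO between 86.8 and 117%. The 11 Fanconi anemia genes stood in PMA at 22.5 and 25.4% in shUHRF1, 37.2 and 43.3% in shDNMT1, 41.9 and 46.0% in shDNMT3B, and 22.9 and 28.0% in shNC. In DMSO they stood at 141 and 127% in shUHRF1 and at 119 and 121% in shDNMT1. Their DMSO values were 87.9 and 105% in shDNMT3B, and 92.6 and 108% in shNC. Within PMA, the recombination and Fanconi anemia values of shDNMT1 and shDNMT3B did not overlap those of shUHRF1 and shNC. For the 9 base excision genes all 8 PMA libraries lay between 64.9 and 72.001%, and for the 5 nucleotide excision genes between 67.1 and 79.7%. Both means joined opposite moves. In shNC, 5 of the 9 base excision genes fell and 1 rose, and 2 of the 5 nucleotide excision genes fell and 1 rose. Between lines, PARP1 averaged 220 CPM in shNC PMA and 447 CPM in shDNMT1 PMA, and XRCC1 averaged 236 and 149 CPM. The 3 mismatch repair genes stood in PMA between 34.6 and 37.7% in shDNMT1 and shDNMT3B and between 22.8 and 25.5% in shUHRF1 and shNC. Among them, EXO1 averaged 2.89 CPM in shNC PMA, 5.51 CPM in shDNMT1 PMA and 8.94 CPM in shDNMT3B PMA. In the same order, MSH6 averaged 24.7, 29.0 and 22.1 CPM, and PMS2 11.9, 14.7 and 13.7 CPM.

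**Figure D4:**
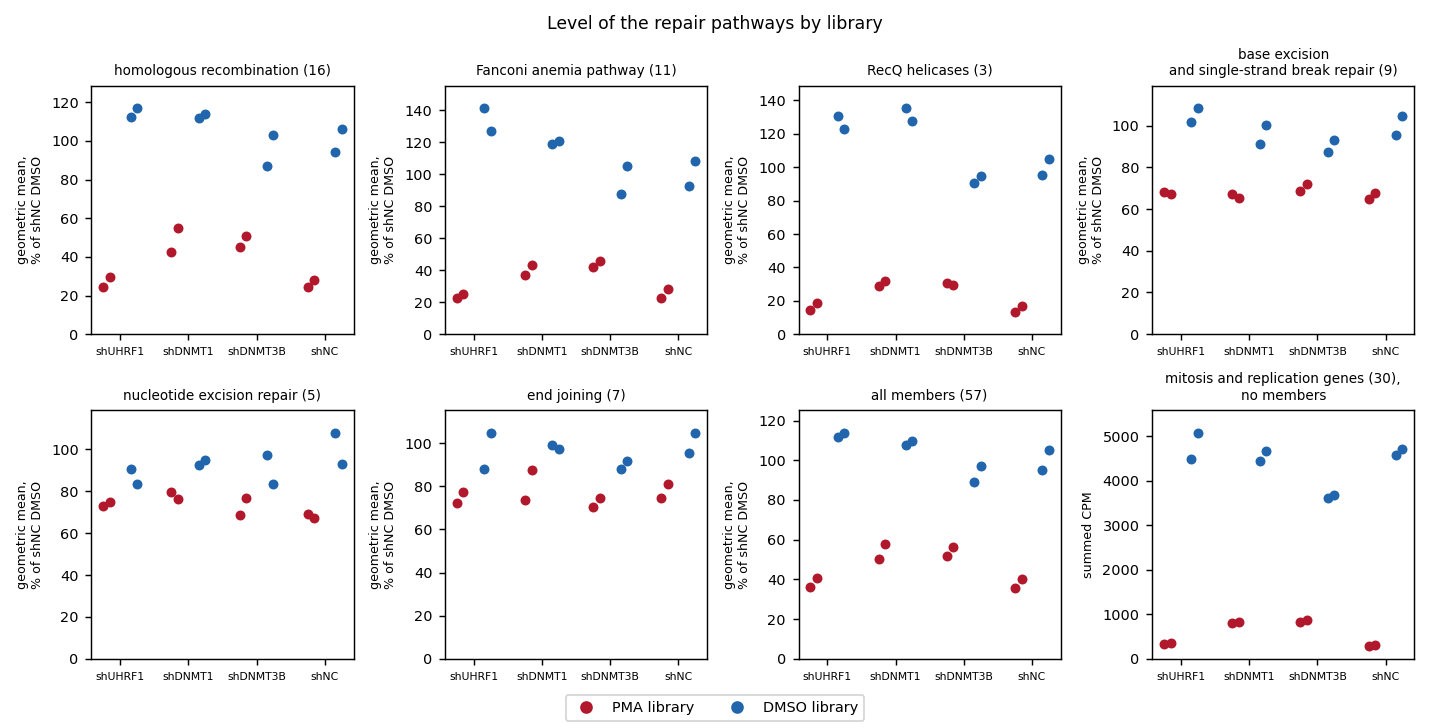
Geometric mean level of the genes of each pathway, in percent of shNC DMSO, in every library, and summed CPM of 30 genes of mitosis and replication that are not among the 57. PMA libraries (red) stand left of DMSO libraries (blue), and numbers in brackets are genes. In PMA, shDNMT1 and shDNMT3B lie above shNC in the recombination, Fanconi anemia and RecQ panels and in the mitosis and replication panel. In the base excision panel all PMA libraries lie between 64.9 and 72.001%, a mean that joins genes that fell with XRCC1, which rose.

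A list of 30 genes of mitosis and replication, none of them a repair gene described here, moved with these pathways. All 30 fell on PMA in each line, with a median log2 fold change of -4.02 in shUHRF1, -2.50 in shDNMT1, -2.03 in shDNMT3B and -4.18 in shNC. Their summed level in PMA was 335 and 358 CPM in shUHRF1, 814 and 838 CPM in shDNMT1, 820 and 876 CPM in shDNMT3B, and 301 and 315 CPM in shNC, and 3615 to 5073 CPM in DMSO. Within PMA, 5 of the 30 were higher than in shNC in shUHRF1, 27 in shDNMT1 and 29 in shDNMT3B, and the difference of the PMA response passed for 0, 23 and 28. What part the number of dividing cells has in the repair gene results was not tested.

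The other repair genes, 104 tested from lists of the same pathways, direct reversal and translesion synthesis, also fell more often than they rose. On PMA, 53 fell and 13 rose in shUHRF1, 49 fell and 11 rose in shDNMT1, 44 fell and 7 rose in shDNMT3B, and 48 fell and 10 rose in shNC, with medians of -0.69, -0.43, -0.40 and -0.45. In shNC, 10 of 20 further genes listed under recombination fell, among them the resolvase gene EME1 (-4.38). That list also held POLQ (-4.74), whose polymerase serves a form of end joining. Of 13 further genes listed under mismatch repair 11 fell, among them PCNA (-2.70), the sliding clamp. Most genes of this list, PCNA among them, also serve DNA replication itself. Of 10 further Fanconi anemia genes 4 fell, among them UBE2T (-4.05), the conjugating enzyme of the Fanconi clamp, and 2 rose. Of 16 further nucleotide excision genes 1 fell (ERCC5, -0.57) and 3 rose, among them ERCC6 (1.14). Of 6 further genes listed under end joining, without POLQ, 1 fell (PAXX, -1.73) and 1 rose (TDP2, 0.64). Of 15 further base excision genes 6 fell, among them the flap nuclease FEN1 (-3.32), and 1 rose. Over all genes tested, 26.0% were lower and 28.4% higher in PMA in shNC. Within PMA, 15 of the 104 were higher and 0 lower in shDNMT1 than in shNC, 20 higher and 3 lower in shDNMT3B, and 2 higher and 0 lower in shUHRF1.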

How the data were processed

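The authors deposited 1 table of raw read counts per Ensembl gene. Per the labels and the study's methods, poly(A) RNA was made into stranded libraries, reads were aligned to hg38 with STAR 2.4.0b and counted with HTSeq 0.6.1p1, and the strand setting is not given in the sources used here. Genes were named by GENCODE release 44. Levels per kilobase were divided by the merged length of all exons it lists for a gene, not by transcript length. Genes passing filterByExpr (minimum count 10, total 15) were scaled by TMM and fitted with edgeR 4.0.16 (R 4.3.3) in 1 quasi-likelihood model of the 8 groups, with Benjamini-Hochberg adjustment over all 16503 genes. The fit was tested on simulated counts for shUHRF1 against shNC in DMSO only, with each library drawn independently and so without the pairing described next. Replicate numbers paired the libraries: deviations from group means correlated at 0.22 to 0.51 in 28 of 28 pairs of groups. The alternatives were this number as a block, upper-quartile scaling, no filter, no mitochondrial genes, separate fits, DESeq2 1.42.0, an exact test after DEGES normalization, and each library left out. Members and gene lists were chosen with earlier results of these data known. Values in every library are given for members called in a comparison that involves a knockdown line, the 3 per pathway with the smallest adjusted p in the PMA response of shNC, and XRCC1, LIG3, PARP1 and PRKDC, which the study's text names; at most 3 genes per list of other repair genes were named. Values after ± are SE from the fit of all 16 libraries, whose spread is shared over the 8 groups. Promoters came from RefSeq.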

Additional observations from a re-analysis of the deposited data

Results flagged for a closer look

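The PMA response differed from that of shNC, by edgeR's test of the difference itself, for 8 repair genes in libraries labelled shDNMT1 and for 15 in those labelled shDNMT3B, each with a smaller fall or no fall. On the log2 scale the difference in shDNMT1 was 2.22 for RAD54L, 2.14 for RAD54B, 1.63 for DDB2, 1.56 for FANCI, 1.48 for BLM, 1.40 for PARP1, 1.37 for BRCA2 and 1.16 for FANCD2. In shDNMT3B it was 3.02 for RAD54B, 2.88 for RAD54L, 2.38 for BRIP1, 1.97 for BLM, 1.89 for FANCD2, 1.88 for XRCC2, 1.85 for BRCA1 and 1.83 for FANCI. The other shDNMT3B differences were 1.60 for EXO1, 1.32 for DDB2, 1.30 for FANCG, 1.29 for RECQL4, 1.13 for RAD51D, 0.99 for CHEK1 and 0.86 for UNG. Both sets rest on the same 4 shNC libraries.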

How the results depend on the processing

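No result reversed its direction. The replicate block gave 17 called repair genes in shUHRF1 against shNC in DMSO (1 without it), 11 in shDNMT1 (3) and 5 in shDNMT3B (1), and 5 in shUHRF1 against shNC in PMA (2). For the difference of the PMA response from that of shNC it gave 5 in shUHRF1 (0), 14 in shDNMT1 (8) and 24 in shDNMT3B (15), and no call was lost, since all 228 values called without it stayed called. With no filter on low counts 3 genes were called in shUHRF1 in DMSO, 0 in shDNMT3B in DMSO, 0 in shUHRF1 in PMA and 1 in the shUHRF1 difference. Fitting only the libraries compared gave 0 in each line in DMSO, 0 in shUHRF1 and 11 in shDNMT1 in PMA, and 5 in the shDNMT1 difference. Of all genes in DMSO, that fit called 0 higher and 15 lower of 14744 in shUHRF1, 2 and 120 of 14591 in shDNMT1, and 24 and 78 of 14838 in shDNMT3B. In PMA it called 97 and 87 of 14064 in shUHRF1 and 1050 and 779 of 14350 in shDNMT1. For the shDNMT1 difference it called 663 and 84 of 15671. DESeq2 called 8 in shUHRF1 in DMSO, against 165 higher and 409 lower of all 16503 genes. It called 1 in the shUHRF1 difference, against 314 higher and 101 lower of all genes. The exact test after DEGES called 2 in shUHRF1 and 0 in shDNMT3B in DMSO and 0 in shUHRF1 in PMA. Over all genes it called 34 higher and 120 lower of 14744, 255 and 316 of 14838, and 473 and 332 of 14064 in that order. Upper-quartile scaling called 0 in shDNMT3B in DMSO, against 362 higher and 388 lower of all 16503 genes. The cause of these changes was not tested. Leaving out 1 library gave 0 to 2 calls in shUHRF1 in DMSO, 0 in shDNMT1 and in shDNMT3B in DMSO, 0 in shUHRF1 in PMA, 7 to 17 in shDNMT1 in PMA, 12 to 16 in shDNMT3B in PMA, and 3 to 9 and 8 to 12 in the shDNMT1 and shDNMT3B differences. Each group has 2 libraries, and no hairpin target passed as lower than in shNC in its own line.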
